A study of Arabidopsis thaliana with 12 samples.

Results

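The 37 genes described here share a large drop of transcript between 9 h and 18 h of strong light in leaves of Arabidopsis thaliana: on the scale of FPKM + 1 (FPKM, fragments per kilobase of transcript and per 1e06 fragments) their level was at least 3-fold lower at 18 h than at 9 h in both genotypes of the study. They were chosen from the deposited table of 32833 genes by their measured values. A gene had to be nuclear, to have a mean of at least 1 FPKM over all libraries, which 17470 genes had, and to have a fall of the group mean of log2(FPKM + 1) of at least 1.585 in each genotype. The thresholds were met by 43 genes, 0.246% of the 17470. Of 13 genes left out by name, several of them clock and light-harvesting genes, 6 had met the thresholds, which left 37. The fall therefore defines these genes. It is described below without a test, and what was tested is the difference between the genotypes.

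Plants were 21 d old, had been grown on soil in short days of 10 h light, and all of them entered light of 500 µmol photons m-2 s-1 when the night ended. Leaf RNA came from Col-0, the reference accession, and from tpt-2, a mutant of TPT, which encodes the translocator that exports triose phosphate from the chloroplast in exchange for phosphate. Each genotype was sampled after 9 h and after 18 h, giving 4 groups of 3 biological replicates. All groups were under strong light and none was taken before the transfer. Hours in light and time of day cannot be told apart, because all plants entered the strong light at the end of the night. In addition, 18 h lies past the end of the former light period.

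The circadian clock of plants is a set of transcription factors that repress each other in sequence through the day. The MYB-related factors CCA1 and LHY are made around dawn and repress genes of the afternoon and evening, while pseudo-response regulators, made one after the other during the day, repress CCA1 and LHY in turn. Many genes that peak towards evening carry a short promoter sequence, the evening element, to which CCA1, LHY and their relatives such as RVE8 bind. Clock output includes growth regulators, photoperiod factors, cold-response genes and antenna proteins of the photosystems, and many of these genes also respond directly to light and sugar.

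TPT itself stood between 328 and 465 FPKM in the Col-0 libraries and between 2.52 and 3.85 FPKM in the tpt-2 libraries. Depth, recovered from the steps between low values, lay between 12.3 and 14.3 M fragments (M, 1e06) except in the 18 h library of Col-0 replicate 1, which had 25.6 M. Leaf markers were high in every library (RBCS1A 17521 FPKM or more), and markers of seed, flower and root stayed at or below 4.48 FPKM. Some libraries stood apart in these 37 genes. In tpt-2 replicate 1 at 18 h only 3 of the 37 lay above their group mean, with a median deviation of -0.29 on the log2 scale, whereas in Col-0 replicate 1 the deviation was 0.19 at 9 h (32 of 37 above) and 0.21 at 18 h (26 of 37 above). Over all genes the median deviation was -0.014, -0.010 and 0.0043 in these 3 libraries. Without tpt-2 replicate 1 at 18 h the thresholds were met by 39 genes, 33 of them among the 37. Without Col-0 replicate 1 they were met by 33 genes when the 9 h library was left out (33 of the 37) and by 36 when the 18 h library was left out (34 of the 37).

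Promoter sequence was examined first, since it played no part in the choice of the genes. The evening element, AAAATATCT on either strand, was found in the window from 250 bases before to 50 bases after the annotated start of 15 of the 37 genes (40.5%) and of 540 of 17469 nuclear genes (3.09%). At least 2 copies lay in the windows of 5 of the 37 genes, among them GRP7, FKF1, AT1G71000 and AT2G15960, against 25 of all 17469 (0.143%). It lay in 26 of 132 windows (19.7%) of genes whose smaller fall was 2-fold to under 3-fold, and 46 of 363 (12.7%) of those at 1.5-fold to under 2-fold. Of the 6 genes that met the thresholds and were left out by name, 1 held it (16.7%). Among genes that were at least 3-fold higher at 18 h in both genotypes it was 1 of 99 (1.01%). A match of letters is not a bound site, and the windows were not compared for base composition.

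**Figure D1:**
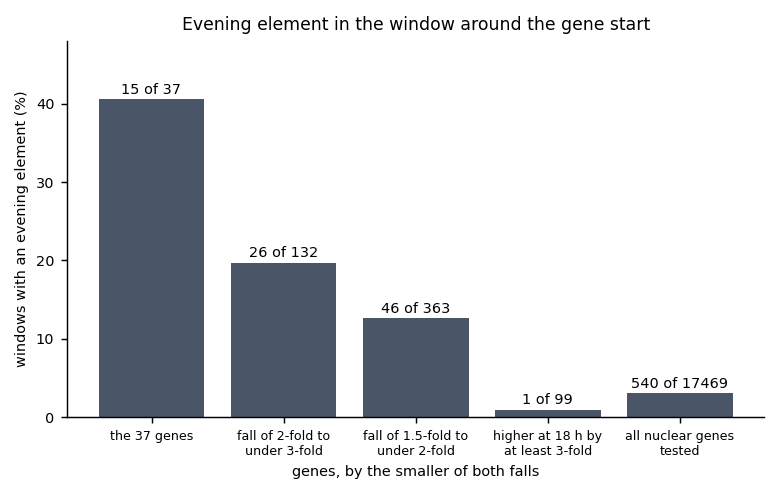
Share of windows (percent, y axis; bars start at 0) that hold an evening element, for genes grouped by the smaller of their falls in both genotypes (x axis), with counts above the bars. The bar of the 37 genes stands at 40.5% and that of all nuclear genes tested at 3.09%.

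The windows held 21 evening elements in all, 16 of them before the start, with a median position 43 bases before it. The 250 bases before the start are shown for 5 of the 15 genes: the gene with 3 copies, its paralog, 2 genes with 2 copies, and AT5G62360, which has a large fall and a genotype difference. They are read on the gene's own strand, 5′ to 3′, from the RefSeq TAIR10.1 assembly. Capitals mark the evening element in either orientation (AAAATATCT or AGATATTTT) and, in AT1G71000, also the related CCA1-binding site AAAAATCT.
GRP7: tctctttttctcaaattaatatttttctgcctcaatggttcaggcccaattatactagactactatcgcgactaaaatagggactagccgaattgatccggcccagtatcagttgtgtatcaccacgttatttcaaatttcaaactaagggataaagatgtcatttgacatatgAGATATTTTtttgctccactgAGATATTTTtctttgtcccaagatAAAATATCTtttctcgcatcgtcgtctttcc
CCR1: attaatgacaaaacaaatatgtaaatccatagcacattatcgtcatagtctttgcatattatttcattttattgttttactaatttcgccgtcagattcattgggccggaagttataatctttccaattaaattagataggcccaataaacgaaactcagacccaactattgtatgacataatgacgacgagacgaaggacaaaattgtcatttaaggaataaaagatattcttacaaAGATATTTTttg
AT1G71000: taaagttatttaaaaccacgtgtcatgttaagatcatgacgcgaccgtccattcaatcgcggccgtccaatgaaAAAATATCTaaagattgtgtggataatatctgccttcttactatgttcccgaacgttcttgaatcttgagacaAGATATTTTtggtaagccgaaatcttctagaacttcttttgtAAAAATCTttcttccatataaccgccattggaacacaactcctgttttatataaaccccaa
AT2G15960: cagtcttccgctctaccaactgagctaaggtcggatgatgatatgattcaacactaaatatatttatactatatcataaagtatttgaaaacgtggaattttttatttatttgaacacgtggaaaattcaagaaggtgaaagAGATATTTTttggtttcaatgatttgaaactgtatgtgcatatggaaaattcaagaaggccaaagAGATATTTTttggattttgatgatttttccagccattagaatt
AT5G62360: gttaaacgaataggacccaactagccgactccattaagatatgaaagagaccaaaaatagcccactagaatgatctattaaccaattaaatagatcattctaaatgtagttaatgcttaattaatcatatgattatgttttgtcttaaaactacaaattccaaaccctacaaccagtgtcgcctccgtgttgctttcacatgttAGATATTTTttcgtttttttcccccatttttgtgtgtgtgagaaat
These windows span chr2:9266558-9266807 (minus strand) for GRP7, chr4:18275217-18275466 (minus) for CCR1, chr1:26770178-26770427 (minus) for AT1G71000, chr2:6946846-6947095 (plus) for AT2G15960 and chr5:25040290-25040539 (plus) for AT5G62360. In GRP7 the 3 copies stand close together just ahead of the start, and in AT2G15960 both copies have the same orientation.

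Other elements were spread more evenly. The CCA1-binding site AAAAATCT occurred in 6 of the 37 windows (16.2%) against 8.19% of all windows, the hormone up at dawn element CACATG in 9 (24.3%) against 12.5%, the G-box CACGTG in 5 (13.5%) against 8.92%, and the abscisic acid-responsive ACGTGNC in 7 (18.9%) against 11.7%. For the I-box GATAAG the shares were 16.2% and 14.9%, for the dehydration-responsive core CCGAC 16.2% and 16.8%, and for the sugar-starvation element TATCCA 18.9% and 16.6%. The LUX-binding core GATNCG was in 3 of the 37 windows (8.11%) against 21.4%. The telo box AAACCCTA stood at 5.41% against 5.91%, and the W-box at 8.11% against 14.0% as TTGACC and 18.9% against 21.2% as TTGACT. All motifs were searched on both strands, and several can overlap one another, the G-box with ACGTGNC among them.

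The falls of the 37 genes had a median of 2.22 in Col-0 (range 1.59 to 3.94) and 2.25 in tpt-2 (range 1.61 to 3.65) on the log2(FPKM + 1) scale, while the medians over all 17470 genes were 0.014 and 0.0016. On the linear scale the median ratio of 9 h to 18 h was 6.63 in Col-0 and, over the 36 genes with reads at 18 h, 5.07 in tpt-2. The fall was larger in Col-0 for 20 genes and in tpt-2 for 17. In none of the 37 did the 9 h and 18 h libraries of a genotype overlap; over all genes tested, such a separation with lower values at 18 h was found in 23.5% in Col-0 and 19.3% in tpt-2, and the choice of the genes used this contrast. The share of all genes called lower at 18 h by limma was 15.5% in Col-0 and 11.3% in tpt-2. In bulk leaf RNA, fewer cells of a type and less RNA per cell cannot be told apart.

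**Figure D2:**
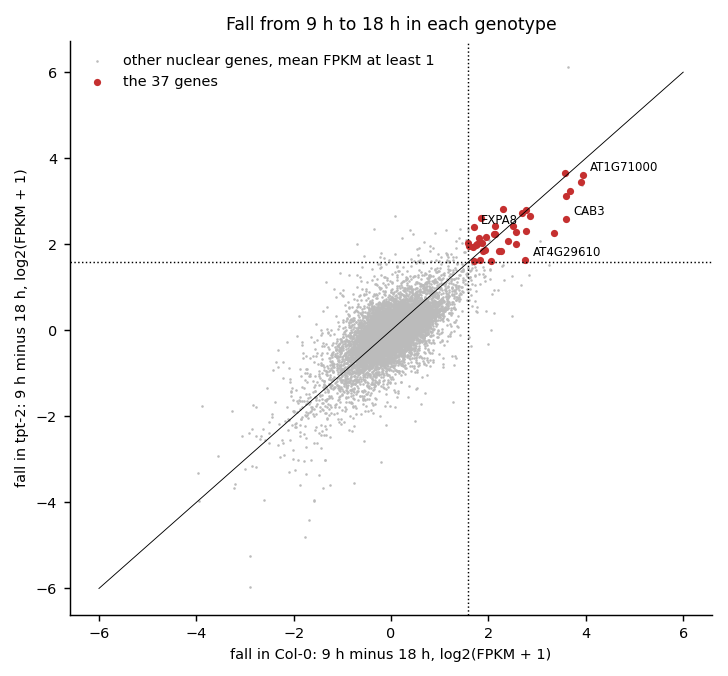
Fall from 9 h to 18 h in Col-0 (x axis) and in tpt-2 (y axis), in units of log2(FPKM + 1), for 17470 nuclear genes; red points are the 37 genes, dotted lines the threshold of 1.585 and the solid line equal falls. The grey points beyond both lines are the 6 genes left out by name, and AT4G29610, with falls of 2.76 and 1.63, lies farthest to the right of the solid line among the 37.

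Close to the threshold the values run without a gap. The 3 genes nearest inside had a smaller fall of 1.59 (CIPK21), 1.61 (XPL1) and 1.61 (AT2G15960), and the 3 nearest outside 1.58 (PHT4;1), 1.57 (AT1G13930) and 1.55 (AT2G40350). When each library was left out in turn, 28 of the 37 genes met the rule in all 12 fits.

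Regulators of the clock and of photoperiod were the largest role group, with 9 of the 37 genes. The role groups were put together after the annotations were read and with earlier results known. The size of a group depends on that grouping and has no share over all genes to be set against. Of the 9, only PRR7, FKF1, LNK1 and CDF3 stand in the clock or photoperiod lists described below. PRR7 is a pseudo-response regulator that represses CCA1 and LHY during the day. It stood at 36.3, 37.1 and 35.3 FPKM in Col-0 at 9 h and at 3.11, 2.01 and 1.38 FPKM at 18 h. In tpt-2 it stood at 45.1, 44.6 and 38.6 FPKM at the earlier time and at 2.24, 5.14 and 5.24 FPKM at the later one. The 9 h values of each genotype were close together, and no 18 h value came near them. PIF4, a basic helix-loop-helix factor that promotes elongation growth, went from 31.5, 20.6 and 25.5 FPKM to 1.601, 0.831 and 0.158 FPKM in Col-0 and from 57.2, 52.7 and 40.9 to 2.19, 4.84 and 4.38 FPKM in tpt-2. Every tpt-2 library was above every Col-0 library at the same time, and Col-0 replicate 3 at 18 h was the lowest library.

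FKF1, an F-box protein that senses blue light and marks CDF repressors for breakdown, had falls of 2.76 in Col-0 and 2.80 in tpt-2 on the log2 scale. Its values were 39.6, 43.2 and 29.8 FPKM at 9 h and 5.07, 4.84 and 3.98 FPKM at 18 h in Col-0, and 43.3, 46.4 and 52.6 FPKM against 4.66, 6.25 and 7.14 FPKM in tpt-2. CDF3, one of the DOF transcription factors of that family, had group means of 24.99 ± 4.31 FPKM (Col-0) and 26.3 ± 1.59 FPKM (tpt-2) at 9 h and 4.62 ± 1.31 FPKM (Col-0) and 6.72 ± 1.71 FPKM (tpt-2) at 18 h (mean ± SD, n = 3, here and below). LNK1 (AT5G64170), a coactivator that works with RVE8, had 21.4 ± 1.34 FPKM (Col-0) and 22.4 ± 3.55 FPKM (tpt-2) at 9 h and 3.37 ± 1.397 FPKM (Col-0) and 4.69 ± 1.56 FPKM (tpt-2) at 18 h; its annotated span shares 245 bases with a gene on the opposite strand. In CDF3 and LNK1 the genotypes overlapped at both times.

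COL5, a B-box protein related to CONSTANS, stood at 30.01, 22.1 and 23.6 FPKM in Col-0 and 51.4, 54.7 and 36.1 FPKM in the mutant at 9 h, and at 3.96, 3.12 and 3.82 FPKM (Col-0) and 6.19, 11.1 and 7.11 FPKM (tpt-2) at 18 h. The tpt-2 libraries were the higher ones at both times, without overlap. BBX28, a second B-box protein, which restrains light-dependent seedling development, was far less abundant, between 4.42 and 11.1 FPKM at 9 h and between 0.566 and 2.62 FPKM at 18 h over both genotypes. COR27, a small regulator that responds to cold and blue light and acts on the clock, stood at 74.7, 80.5 and 62.1 FPKM in Col-0 and 76.1, 71.98 and 84.5 FPKM in the mutant at 9 h. At 18 h its values were 7.896, 10.7 and 9.05 FPKM (Col-0) and 11.002, 11.2 and 11.98 FPKM (tpt-2), each tpt-2 library above each Col-0 library. AT4G33980, annotated as an uncharacterized protein, was placed beside COR27 from general knowledge. The coding sequences of the 2 genes are identical at 64.9% of aligned bases, and at 51.4% when gaps are counted. The fall of AT4G33980 was 1.77 in Col-0 and 2.001 in tpt-2.

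GRP7 and CCR1 (GRP8) encode paralogous glycine-rich RNA-binding proteins that form a clock-driven feedback loop downstream of CCA1 and LHY. GRP7 was the most abundant of the 37 transcripts. It stood at 6235, 6863 and 5077 FPKM in Col-0 and 6085, 5437 and 6714 FPKM in the mutant at 9 h, and at 488, 493 and 422 FPKM (Col-0) and 554, 642 and 749 FPKM (tpt-2) at 18 h. The genotypes overlapped at 9 h, and at 18 h each tpt-2 library was above each Col-0 library. CCR1 stood at 1239, 1421 and 828 FPKM (Col-0) and 893, 764 and 1174 FPKM (tpt-2) at 9 h and at 262, 284 and 273 FPKM (Col-0) and 279, 299 and 329.8 FPKM (tpt-2) at 18 h. Its fall, 2.05 in Col-0 and 1.62 in tpt-2, was less than that of GRP7, at 3.68 and 3.23, and the printed windows hold 1 and 3 evening elements. The coding sequences of the pair are identical at 78.6% of aligned bases.

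The clock list, 23 genes set down from general knowledge with earlier results known, had 22 genes tested, 3 of which are among the 37 (PRR7, FKF1 and LNK1). A further 3 of the list, GI (a fall of 3.91 in Col-0), PRR5 (2.02) and ELF4 (1.80), had met the thresholds and were left out by name. Its median fall was 0.95 in Col-0 and 0.90 in tpt-2. The direction within the list was mixed: the morning genes LHY, RVE8 and CCA1 had negative falls, that is higher levels at 18 h, of -3.96, -3.94 and -1.57 in Col-0 and -3.33, -3.96 and -1.41 in tpt-2. Of a further list of 12 tested cold-response and clock-output genes, 5 are among the 37, namely GRP7, CCR1, COR27, AT4G33980 and DREB1A. Several of the others reached the threshold in Col-0 but not in tpt-2, such as COR15B, a chloroplast protein of cold acclimation, with falls of 3.25 and 1.52, and COR15A with 2.48 and 0.33. Lists of B-box genes (19 tested), light-signalling genes (18) and photoperiod genes (4) held 2, 1 and 1 of the 37, and a list of 11 tested chlorophyll-synthesis genes held 0.

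**Figure D3:**
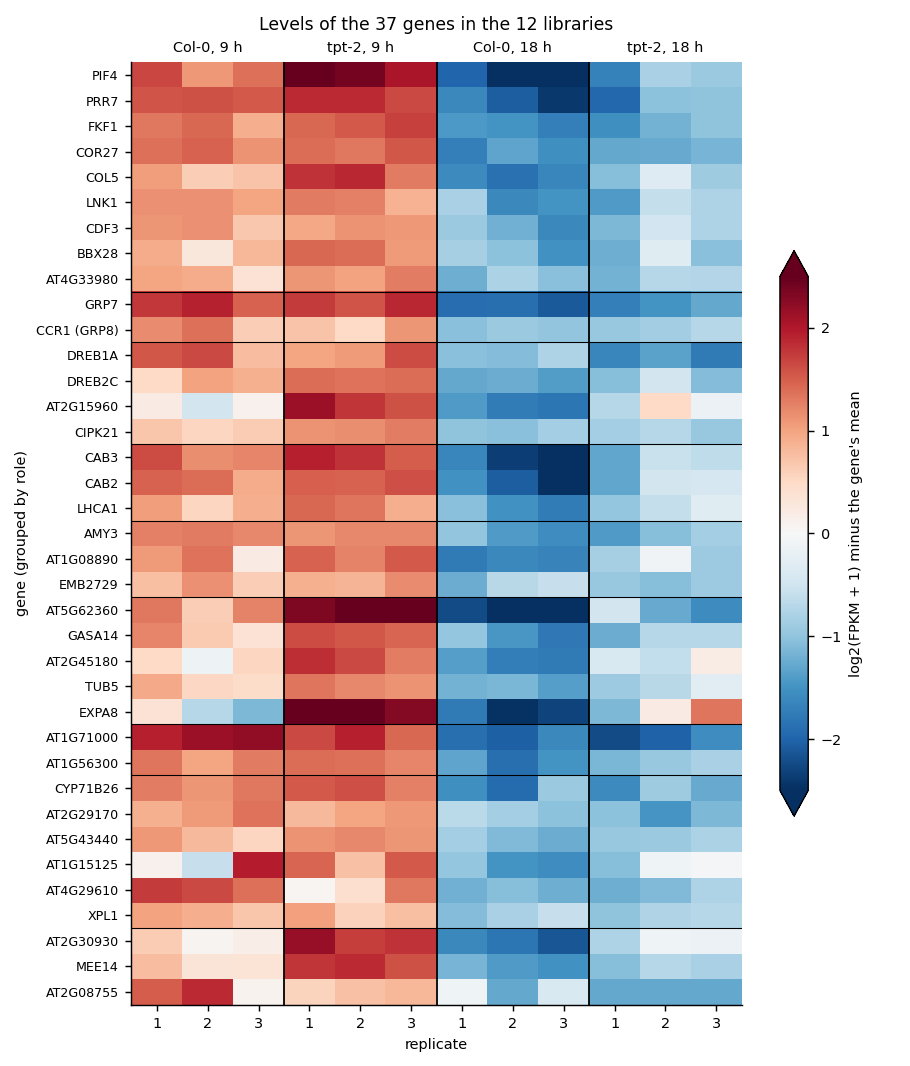
Level of each of the 37 genes (rows, grouped by role) in each of the 12 libraries (columns, 3 replicates per group), as log2(FPKM + 1) minus the gene's mean over all libraries; colours are limited to 2.5 in either direction. The 9 h libraries are mostly red and the 18 h libraries mostly blue, and the rows of EXPA8, AT2G15960 and AT2G30930 are redder in tpt-2 than in Col-0 at both times.

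Of the regulators of cold, drought and salt responses, DREB1A (CBF3), an activator of cold-response genes, was low throughout. It stood at 10.2, 10.999 and 5.502 FPKM in Col-0 and 6.51, 6.99 and 10.8 FPKM in the mutant at 9 h, and at 0.8399, 0.796 and 1.22 FPKM (Col-0) and 0.234, 0.504 and 0.112 FPKM (tpt-2) at 18 h, where the tpt-2 libraries held 4, 9 and 2 fragments. All tpt-2 values at 18 h were below the Col-0 values. Its coding sequence is 87.3% and 87.5% identical to the neighbouring CBF1 and CBF2, so reads may be shared among the 3 genes, although CBF1 and CBF2 did not reach a mean of 1 FPKM. DREB2C, a related activator tied to heat and drought, went from group means of 4.76 ± 1.03 to 0.326 ± 0.07897 FPKM in Col-0 and from 7.55 ± 0.124 to 0.836 ± 0.471 FPKM in tpt-2. CIPK21, a kinase that acts with calcium sensors, had closely spaced replicates, with 30.7, 27.3 and 29.3 FPKM (Col-0) and 41.9, 43.01 and 46.3 FPKM (tpt-2) at 9 h and 8.75, 8.45 and 9.88 FPKM (Col-0) and 9.92, 10.9 and 9.12 FPKM (tpt-2) at 18 h. The genotypes were apart at 9 h and overlapped at 18 h. AT2G15960, annotated as a stress-induced protein, is described with the genotype differences.

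Antenna proteins, which bind chlorophyll and pass light energy to the photosystems, included CAB3 and CAB2 of photosystem II and LHCA1 of photosystem I. CAB3 stood at 1453, 1045 and 1094 FPKM in Col-0 and 1814, 1639 and 1348 FPKM in the mutant at 9 h. At 18 h it stood at 151, 90.8 and 67.1 FPKM (Col-0) and 189, 318 and 303 FPKM (tpt-2), with all tpt-2 libraries above all Col-0 libraries. CAB2 had group means of 619 ± 122 FPKM (Col-0) and 732 ± 40.8 FPKM (tpt-2) at 9 h and 62.4 ± 23.9 FPKM (Col-0) and 158 ± 48.5 FPKM (tpt-2) at 18 h. The falls of CAB3 (3.59 and 2.59) and CAB2 (3.34 and 2.25) were larger in Col-0 than in tpt-2. Coding sequences of CAB3, CAB2 and the neighbouring CAB1 are 95.6% to 96.4% identical, so the division of reads between them is uncertain. LHCA1 had 1877 ± 328 FPKM (Col-0) and 2481 ± 459.8 FPKM (tpt-2) at 9 h and 393 ± 99.3 FPKM (Col-0) and 691 ± 154 FPKM (tpt-2) at 18 h. Of 19 tested antenna genes 16 had a positive fall in Col-0 and 17 in tpt-2, with medians of 0.89 and 0.68, and LHB1B1 and LHCB2.2 of this list had met the thresholds and were left out by name. In contrast, LHCB4.3 had negative falls of -3.23 and -3.66.

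Among enzymes of starch, AMY3, the alpha-amylase of the chloroplast, stood at 125, 129 and 121 FPKM in Col-0 and 113, 119.8 and 121 FPKM in the mutant at 9 h and at 25.8, 18.9 and 16.9 FPKM (Col-0) and 18.7, 24.2 and 28.5 FPKM (tpt-2) at 18 h. The genotypes overlapped at both times. EMB2729 (BE1), annotated as a member of the alpha-amylase family, had falls of 1.68 in Col-0 and 1.94 in tpt-2. AT1G08890, annotated as a transporter of the major facilitator superfamily, went from 12.3 ± 4.93 to 1.15 ± 0.122 FPKM in Col-0 and from 17.5 ± 1.88 to 3.71 ± 1.57 FPKM in tpt-2. A list of 10 tested sugar-repressed genes, all 10 of which were called higher in tpt-2 at 9 h in limma and 1 at 18 h, holds none of the 37. That count follows from the exclusion by name, since AT2G33830 of this list had met the thresholds, with falls of 3.63 and 6.12.

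AT1G71000, annotated as a J-domain chaperone, had the largest smaller fall of the 37, 3.94 in Col-0 and 3.62 in tpt-2. Its level was 16.9, 19.6 and 20.9 FPKM in Col-0 and 13.8, 17.1 and 11.7 FPKM in the mutant at 9 h. At 18 h the Col-0 libraries held 7, 2 and 7 fragments and the tpt-2 libraries 0, 2 and 8, so the transcript was barely detectable in either genotype. AT1G56300, a second J-domain protein, had falls of 2.77 and 2.299; its span shares 775 bases with a gene on the opposite strand.

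The 6 genes with other metabolic annotations had falls between 1.61 and 2.76. CYP71B26, a cytochrome P450, went from 16.5 ± 1.39 to 1.81 ± 0.992 FPKM in Col-0 and from 19.6 ± 2.596 to 2.18 ± 0.7796 FPKM in tpt-2. XPL1, the phosphoethanolamine N-methyltransferase of choline synthesis, had falls of 1.70 and 1.61. AT4G29610, annotated as a cytidine deaminase, stood at 15.9, 14.7 and 11.9 FPKM in Col-0 and 4.195, 5.71 and 11.5 FPKM in the mutant at 9 h, the Col-0 libraries above the tpt-2 libraries, and between 1.15 and 1.93 FPKM at 18 h. AT1G15125, a methyltransferase, varied widely among replicates, with 4.15, 2.21 and 17.7 FPKM in Col-0 at 9 h; it shares 183 bases on the same strand with the more abundant AT1G15120. AT5G43440, an oxygenase, had falls of 1.87 and 2.04, and AT2G29170, an NAD(P)-binding protein, of 1.95 and 2.16.

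The 37 genes include 1 that does not code for protein, the small RNA gene AT2G08755, annotated as a small nucleolar RNA. It had 0 to 9 fragments in a library and none in the 3 tpt-2 libraries at 18 h, so its level is poorly determined and no ratio is given. Libraries made from poly-A RNA are not designed to measure such transcripts. The remaining genes, of cell wall and growth and of no assigned role, differed between the genotypes and are described next.

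The difference between tpt-2 and Col-0 was not used to choose the genes, and its mean over both times is orthogonal to the falls in the fit. In that mean 17 of the 37 genes (45.9%) were higher in tpt-2 and 0 were lower in the limma fit (Benjamini-Hochberg adjusted p under 0.05), against 16% higher and 6.24% lower over all 17585 genes tested. At an unadjusted p under 0.05 in limma, 24 were higher and 2 were lower. The share of all genes at this looser cutoff was not counted, so these counts have no background to be set against. The count of adjusted calls was 19 without tpt-2 replicate 1 at 18 h, 18 without the 9 h library of Col-0 replicate 1, and 19 without its 18 h library. The median difference of the 37 genes was 0.36 on the log2 scale, and that of all genes was 0.08. Of the 17, 15 were called under every alternative tried. AT1G56300 was lost in 8 of 19 alternatives, and DREB2C in 1.

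**Figure D4:**
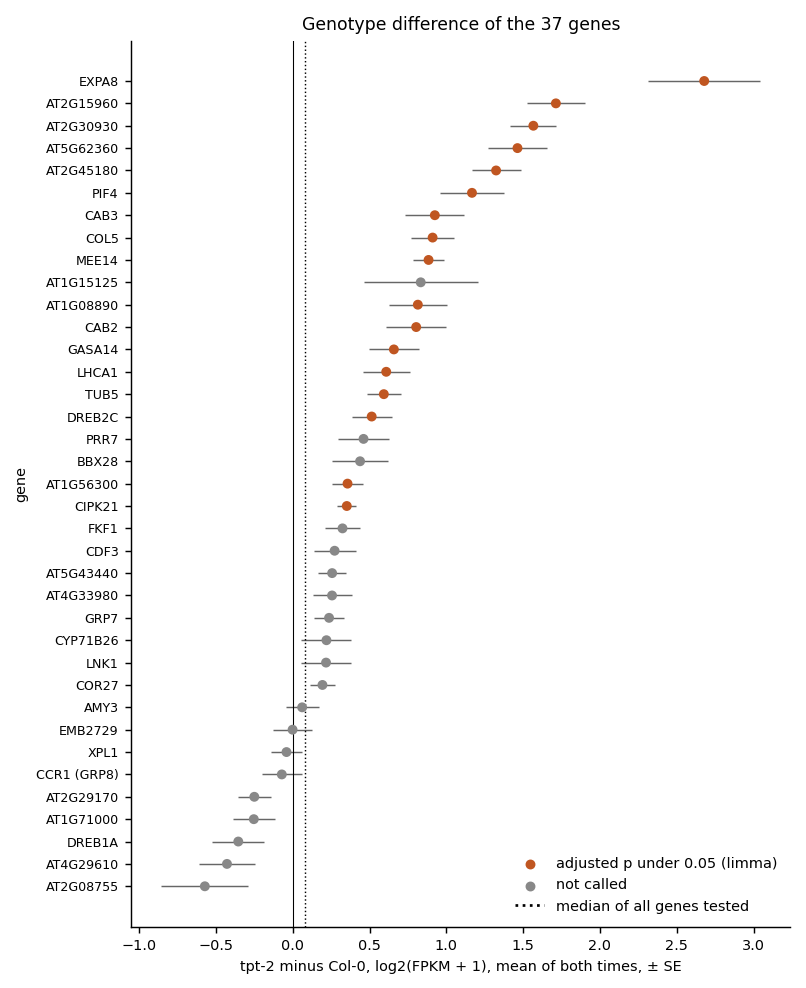
Difference between tpt-2 and Col-0 in log2(FPKM + 1), averaged over both times (x axis; bars are the SE of the limma fit), for each of the 37 genes (y axis); orange points passed an adjusted p of 0.05. EXPA8 stands highest at 2.68, and the dotted line marks the median of all genes tested, 0.08.

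EXPA8, AT5G62360, AT2G45180, GASA14 (AT5G14920) and TUB5 were put together as genes of cell wall and growth after their annotations were read and with earlier results known; only the first pair carries a cell-wall annotation. Each of the 5 was called higher in tpt-2 in the mean and at 9 h, against 16% and 13.6% of all genes, and the grouping is a description. EXPA8, an expansin, a protein that loosens cell walls, had the largest difference, 2.68 (SE 0.366, adjusted p 0.000649 in limma). It stood at 9.39, 3.91 and 2.67 FPKM in Col-0 and 55.8, 44.2 and 38.3 FPKM in the mutant at 9 h, and at 1.35, 0.446 and 0.609 FPKM (Col-0) and 2.703, 8.23 and 19.4 FPKM (tpt-2) at 18 h. The genotypes were apart at both times, although the tpt-2 libraries at 18 h were widely spread. AT5G62360, annotated as an inhibitor of invertase or pectin methylesterase, stood at 26.2, 15.5 and 24.6 FPKM in Col-0 and 53.3, 61.005 and 75.8 FPKM in the mutant at 9 h, and at 1.29, 0.536 and 0.9203 FPKM (Col-0) and 6.92, 3.55 and 2.66 FPKM (tpt-2) at 18 h. Its difference was 1.46 (SE 0.194, adjusted p 0.000541 in limma).

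AT2G45180, annotated as a lipid-transfer protein, was abundant, with 526, 344 and 539.7 FPKM in Col-0 and 1339.6, 1179.6 and 914 FPKM in the mutant at 9 h and 144, 112 and 109 FPKM (Col-0) and 287, 244 and 427 FPKM (tpt-2) at 18 h. Each tpt-2 library was above each Col-0 library, and the difference was 1.32 (SE 0.160, adjusted p 0.000309 in limma). GASA14, of a family regulated by gibberellin, and TUB5, a beta-tubulin of the microtubules, had smaller differences of 0.66 and 0.59 (adjusted p 0.0151 and 0.00388 in limma). The group means of TUB5 were 89.9 ± 17.2 FPKM (Col-0) and 134 ± 9.77 FPKM (tpt-2) at 9 h and 23.5 ± 2.07 FPKM (Col-0) and 36.8 ± 8.69 FPKM (tpt-2) at 18 h. The 9 h calls of GASA14 and TUB5 were lost when replicate 1 or 2 of tpt-2, or replicate 2 or 3 of Col-0, was left out at 9 h.

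Genes of other groups were among those with large differences. AT2G15960, the stress-induced protein, stood at 13.2, 7.98 and 12.3 FPKM in Col-0 and 53.3, 41.7 and 36.1 FPKM in the mutant at 9 h, and at 3.64, 2.68 and 2.51 FPKM (Col-0) and 6.55, 16.4 and 10.2 FPKM (tpt-2) at 18 h, a difference of 1.71 (adjusted p 0.000172 in limma). AT2G30930, an uncharacterized protein, stood at 15.3, 10.02 and 10.7 FPKM (Col-0) and 46.5, 33.8 and 35.96 FPKM (tpt-2) at 9 h and at 2.43, 1.997 and 1.39 FPKM (Col-0) and 5.14, 8.74 and 8.54 FPKM (tpt-2) at 18 h, a difference of 1.57 (adjusted p 5.66e-05 in limma). In both genes the genotypes did not overlap at either time. PIF4 was higher by 1.17 (adjusted p 0.00275), COL5 by 0.91 (adjusted p 0.00142) and MEE14, named for an embryo phenotype, by 0.88 (adjusted p 0.000185), all in limma.

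The 3 antenna genes were called higher in tpt-2 in the mean of both times, CAB3 by 0.92, CAB2 by 0.80 and LHCA1 by 0.61 (adjusted p 0.00617, 0.0135 and 0.0151 in limma). In the whole antenna list 15 of 19 tested genes were called higher and 1 was lower, against 16% and 6.24% of all genes. The 15 include these 3 genes. Without them, 12 of 16 tested antenna genes were called higher and 1 was lower. CAB1 is among the 16, and the division of reads between it, CAB2 and CAB3 is uncertain. Of the genes chosen by their falls, the others called higher were AT1G08890 by 0.81, DREB2C by 0.51, AT1G56300 by 0.36 and CIPK21 by 0.35.

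Among the 9 regulators of clock and photoperiod PIF4 and COL5 were called in the mean of both times, a share near the 16% of all genes. The same 2 were called higher at 9 h and at 18 h, against 13.6% and 2% of all genes. The calls of both at 18 h, and that of PIF4 at 9 h, were lost under some alternatives. In the mean of both times PRR7 differed by 0.46 (adjusted p 0.0689), FKF1 by 0.32 (0.0555), COR27 by 0.19 (0.112) and GRP7 by 0.24 (0.0993), as adjusted p-values in limma. The call of PRR7 turned on single libraries, with adjusted p 0.00604 without tpt-2 replicate 1 at 18 h, 0.0331 without Col-0 replicate 1 at 18 h, and a range of 0.00604 to 0.158 over all alternatives. FKF1 reached 0.02104 without tpt-2 replicate 1 at 18 h and 0.0419 without Col-0 replicate 2 at 9 h, and 0.0472 with all libraries when genes under a mean of 5 FPKM were left out. In the clock list 9 of 22 tested genes were called higher in tpt-2, against 16% of all genes. PRR7, FKF1 and LNK1 were not among the 9, and which clock genes belong to the 37 was partly set by the exclusion by name. Of the 15 genes with an evening element 4 were called higher, and of the 22 without one 13 were, against 16% of all genes. The difference between these shares was not tested.

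**Figure D5:**
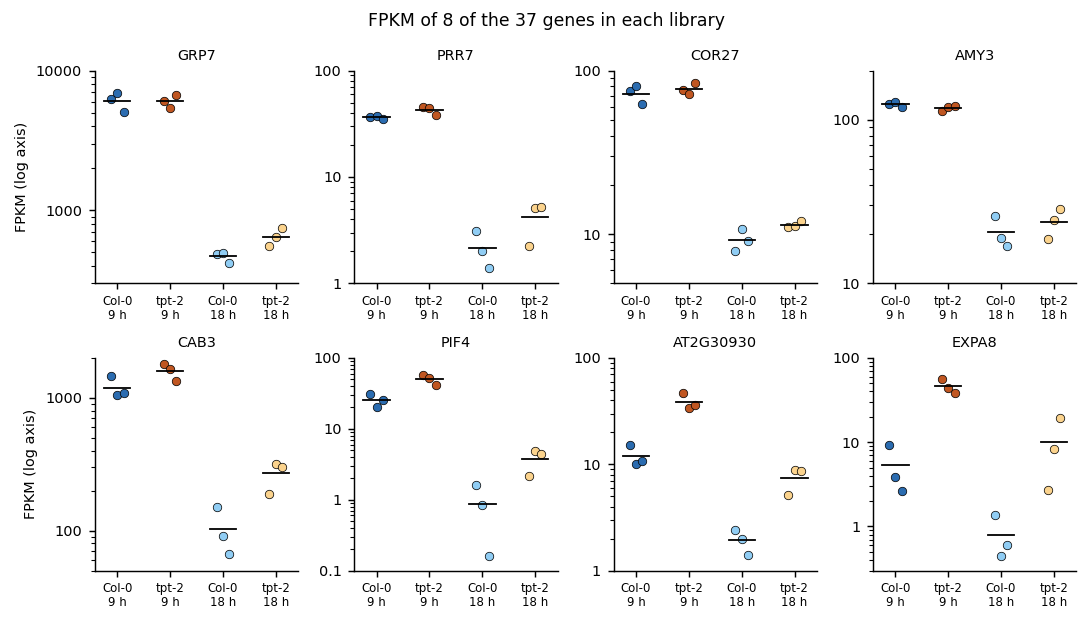
FPKM (y axis, log scale, own range in each panel) of 8 of the 37 genes in the 12 libraries; points are libraries and lines group means. In the upper row (GRP7, PRR7, COR27, AMY3) the genotype means lie near each other at 9 h, and tpt-2 means are above Col-0 means at 18 h. In the lower row (CAB3, PIF4, AT2G30930, EXPA8) tpt-2 means are above Col-0 means at both times.

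At the single times the same direction prevailed. At 9 h 12 of the 37 genes (32.4%) were called higher in tpt-2, against 13.6% of all genes, and 1, AT4G29610, was lower, against 8.72%, with a difference of -0.99 (adjusted p 0.0178 in limma). The largest differences at 9 h were those of EXPA8 (3.02), AT2G15960 (1.89) and AT2G30930 (1.62), followed by AT5G62360 (1.497), AT2G45180 (1.29) and MEE14 (1.27). The count at 9 h was 8 when tpt-2 replicate 1 was left out and 8 when replicate 2 was, and the call of AT4G29610 was lost in both. Without Col-0 replicate 3 at 9 h, 9 genes were called higher in tpt-2 and 3 lower. Leaving out any other library gave at most 1 gene called lower. A difference at one time shares libraries with the falls that chose the genes.

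At 18 h 9 of the 37 genes (24.3%) were called higher, against 2% of all genes, and 0 were called lower, against 0.881%. As at 9 h, the libraries compared also entered the falls that chose the genes, so these counts are not independent of that choice. At an unadjusted p under 0.05 in limma 20 were higher and 2 were lower, and the share of all genes at that cutoff was not counted. The differences of the 9 called genes were EXPA8 (2.33), AT2G15960 (1.54), AT2G30930 (1.51), CAB3 (1.43), AT5G62360 (1.43), PIF4 (1.39), AT2G45180 (1.35), CAB2 (1.35) and COL5 (0.95). Only AT2G30930 was called under every alternative. The count was 1 without Col-0 replicate 2 and also without Col-0 replicate 3, 3 when replicate 2 of tpt-2 was left out and 6 when its replicate 3 was, all at 18 h. Counted by libraries, 17 of the 37 genes had all tpt-2 libraries above all Col-0 libraries and 1 below at 9 h, against 23.9% and 13.9% of all genes, and likewise 17 and 1 at 18 h, against 22.1% and 6.86%. The 1 below at 18 h was DREB1A. Of the 37 genes 7 were called at both times, 6 at 9 h only and 2 at 18 h only, and whether the difference changed with time was not tested, since it equals the difference of the falls that chose the genes.

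The falls of single genes differed most between the genotypes in AT4G29610, CAB2 and CAB3, which had the larger fall in Col-0, and in MEE14, EXPA8 and DREB1A, which had the larger fall in tpt-2. MEE14 had falls of 1.84 in Col-0 and 2.61 in tpt-2. Its values were 61.8, 44.7 and 45.7 FPKM in Col-0 and 125, 133 and 109.8 FPKM in the mutant at 9 h and 15.3, 12.7 and 11.9 FPKM (Col-0) and 16.5, 21.4 and 19.96 FPKM (tpt-2) at 18 h. For EXPA8 the falls were 1.70 and 2.39, and for DREB1A 2.298 and 2.81. These pairs are given side by side as a description.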

How the data were processed

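Per the labels' protocols, poly-A RNA of leaves was made into directional libraries with dUTP in the second strand. The authors deposited FPKM values per gene and library; per the submitters' processing notes, CASAVA, HISAT2 2.0.5, featureCounts 1.5.0-p3 and DESeq2 1.20.0 were named, with build TAIR10. The annotation and the strand setting of the counting are not given in the sources used here. All 12 value columns matched a sample title.

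The deposited FPKM were not scaled again and entered as log2(FPKM + 1), which understates changes of low genes. Depth was recovered from the FPKM steps and mean transcript lengths of the RefSeq TAIR10.1 annotation: with 1 depth per library, 99.5% to 99.6% of low values were whole within 0.05. The depths limit precision by counting error only; genes near 3 fragments are poorly determined. Coordinates and promoter windows are from TAIR10.1.

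The 37 genes, the gene lists and the role groups were chosen with earlier results of these data known, and the role groups after the annotations of the 37 were read. The genotypes were compared in limma 3.58.1 (R 4.3.3): 1 factor of 4 groups over 12 libraries, eBayes with a mean-variance trend, 17585 genes (organelle genes included) whose mean was 1 FPKM or more, two-sided p-values adjusted by Benjamini-Hochberg, called under 0.05. The p-values measure the spread between the 3 replicates of a group, which are biological per the series' design text. The procedure, tested on simulated data of 17399 genes at 9 h, recovered 71.5% of 200 genes changed 2-fold, with 5.30% false calls. The simulation gave all genes the same spread beyond counting error and held no outlying library. Its rates may therefore not hold for genes or libraries with a wider spread. Replicate libraries shared no identical values above 0. Genes named singly were all that stand in a list, the 10 largest falls, the 6 highest levels, the 6 largest called genotype differences, the nearest 3 on either side of the threshold and the 3 with the most unequal falls in each direction; the remaining ones of the 37 were added to account for all. Alternatives were another pseudocount (0.1), other filters and scalings, no trend, a replicate block, the libraries of 1 time only, other fold thresholds and leaving out each library. Tables were handled in Python 3.11.15 with pandas 2.3.3.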

Additional observations from a re-analysis of the deposited data

How the results depend on the processing

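The number of genes that met the rule was 72 with a pseudocount of 0.1, all 37 included, 167 at a 2-fold and 19 at a 4-fold threshold, and 33 to 43 when each library was left out. Genes called between the genotypes at 9 h, 13 of 37, numbered 8 to 13 when each library was left out. At 18 h the 9 calls became 5 with no filter on low values, 5 with a replicate block, and 1 to 11 when each library was left out. In the mean of both times the 17 calls stayed between 15 and 20 under the alternatives, but 1 to 2 genes were called lower with a pseudocount of 0.1 or without replicate 3 of either genotype at 9 h.

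Single genes near 0 changed sign in the mean of both times. AMY3, at 0.06, was -0.035 with median-ratio scaling, and ranged from -0.0061 to 0.145 when each library was left out. The same ranges were -0.104 to 0.021 for XPL1, -0.103 to 0.074 for EMB2729 and -0.184 to 0.010 for CCR1. None of these passed the test, and the cause was not tested.

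Replicate numbers did not pair the libraries: of 18 same-numbered pairs across groups, 5 had deviations correlated above 0.1 (range -0.345 to 0.135), and 2 libraries correlated best with their own number. The block left 17 calls in the mean of both times and 12 at 9 h. Depth limits what can be said of DREB1A, AT1G71000 and AT2G08755 at 18 h, which had few fragments there.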
